A study of Mus musculus with 12 samples.

Results

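The genes Eef1a1, Eef1b2, Eef1d, Eef1g and Eef2 encode the core factors of translation elongation. The regions called on their mRNAs in LARP1 crosslinking libraries of mouse naive CD4 T cells are described here. A region was included when it overlapped, on the same strand, an annotated exon of 1 of these 5 genes (GENCODE M21, GRCm38). In the control cells 10 of 3189 regions met this rule and in the Rnmt cKO cells 21 of 2367 did, which made 31 of 5556 in all. LARP1 is an RNA binding protein, and RNMT adds the methyl group to the guanosine of the mRNA cap. The regions came from enhanced crosslinking immunoprecipitation (eCLIP), in which ultraviolet light fixes a protein to RNA in the cell, the protein is recovered with its RNA fragments, and sequenced cDNAs end next to the crosslinked base. The series comprised 12 libraries, of which the LARP1 immunoprecipitations (IPs) of the 2 genotypes are used here through 1 list of regions each. These lists hold all called regions, before the study's later selection by read ratios to control libraries. Control cells were Rnmt fl/fl CD4cre - and Rnmt cKO cells were Rnmt fl/fl CD4cre +, so that both carried the floxed alleles and only the latter carried the Cre transgene. The CD4-driven Cre acts in the T cell lineage from thymic development onwards, not only in the naive CD4 T cells that were collected. Cells of both genotypes were sorted from lymph nodes of female mice, irradiated with ultraviolet light and precipitated with the abcam LARP1 antibody. The number of mice per library was not given in the sources used here.

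Elongation adds amino acids to the growing protein 1 codon at a time. The GTPase eEF1A (Eef1a1) carries aminoacyl-tRNA to the ribosome, the eEF1B complex (Eef1b2, Eef1d and Eef1g) exchanges the GDP on eEF1A for GTP, and the GTPase eEF2 (Eef2) moves the ribosome on along the mRNA. Most mRNAs of this machinery belong to the TOP class, together with those of the ribosomal proteins. A TOP mRNA begins at its cap with a C followed by a run of C and U, and LARP1 can bind the cap together with that run.

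In both lists each of the 5 mRNAs had at least 1 region, and 4 of the 5 (Eef1a1, Eef1b2, Eef1d and Eef2) had their highest-scoring region in the first exon, within the 5′UTR. Eef1g, the structural subunit of eEF1B, had none in its 5′UTR in either list. Among all 21924 protein-coding genes, the share with an exonic region was 2.59% for control cells and 3.17% for Rnmt cKO cells, and the share with a 5′UTR region was 1.32% and 1.49%. The 5 genes were chosen with earlier results of these data known, so their counts are no test against these shares.

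The sequences around the highest-scoring region of each mRNA are shown because they carry the pyrimidine run under the 5′UTR regions, and because that of Eef1g is of another kind. They are GENCODE M21 transcript sequences on GRCm38, written 5′ to 3′ on the strand of the gene with T for U, and capitals mark the bases of that highest-scoring region in either list. The windows lie at chr9:78481655-78481684 (minus strand), chr1:63177119-63177148 (plus), chr15:75909287-75909316 (minus) and chr10:81176633-81176662 (plus). The Eef1g window at chr19:8969197-8969364 (plus) crosses the junction of exons 3 and 4, and its last base, in lower case, belongs to the second Eef1g region described further on.
Eef1a1: cgccttggacgttcTTTTTCgcaacgggtt
Eef1b2: cgctctgggtccttTTTTtccctcagcgct
Eef1d: ggcgccctccctctCCTTTGcagtcctgag
Eef2: tgacgtcagcggtcTCTTCcgccgcagccg
Eef1g: gttTGAGAGCAATGCCATTGCCTATTAtgt
Each of the 4 5′UTR regions overlapped a run of C and T that a G preceded, and in Eef1d the Rnmt cKO region reached 1 base past the end of the run. The run was ttctttttc (9 nt) in Eef1a1, tcctttttttccctc (15 nt) in Eef1b2, ccctccctctccttt (15 nt) in Eef1d and tctcttcc (8 nt) in Eef2. The region did not begin with the run but further in, 3 nt after its first base in Eef1a1, 2 nt in Eef2 and 10 nt in Eef1d. In Eef1b2 it began 6 nt into the run in the control list and 5 nt in the Rnmt cKO list. In Eef1a1 and Eef2 the first crosslinked base was the base after the first C of the run. The Eef1g window had no such run under its region, which lay in coding sequence.

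Runs of this kind were common under 5′UTR regions in general. A run of at least 5 nt overlapped 4 of 4 5′UTR regions of the elongation factors in the control list and 4 of 5 in the Rnmt cKO list. Over all genes it overlapped 225 of 301 (74.8%, 95% Wilson interval 69.6 to 79.3) and 247 of 351 (70.4%, 65.4 to 74.9). In ribosomal protein mRNAs the shares were 86.0% and 82.6%. The counts of the elongation factors are too small to be set apart from these shares, and every interval given here covers counting error over regions only, since each genotype was 1 library and no test between genotypes was possible.

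**Figure D1:**
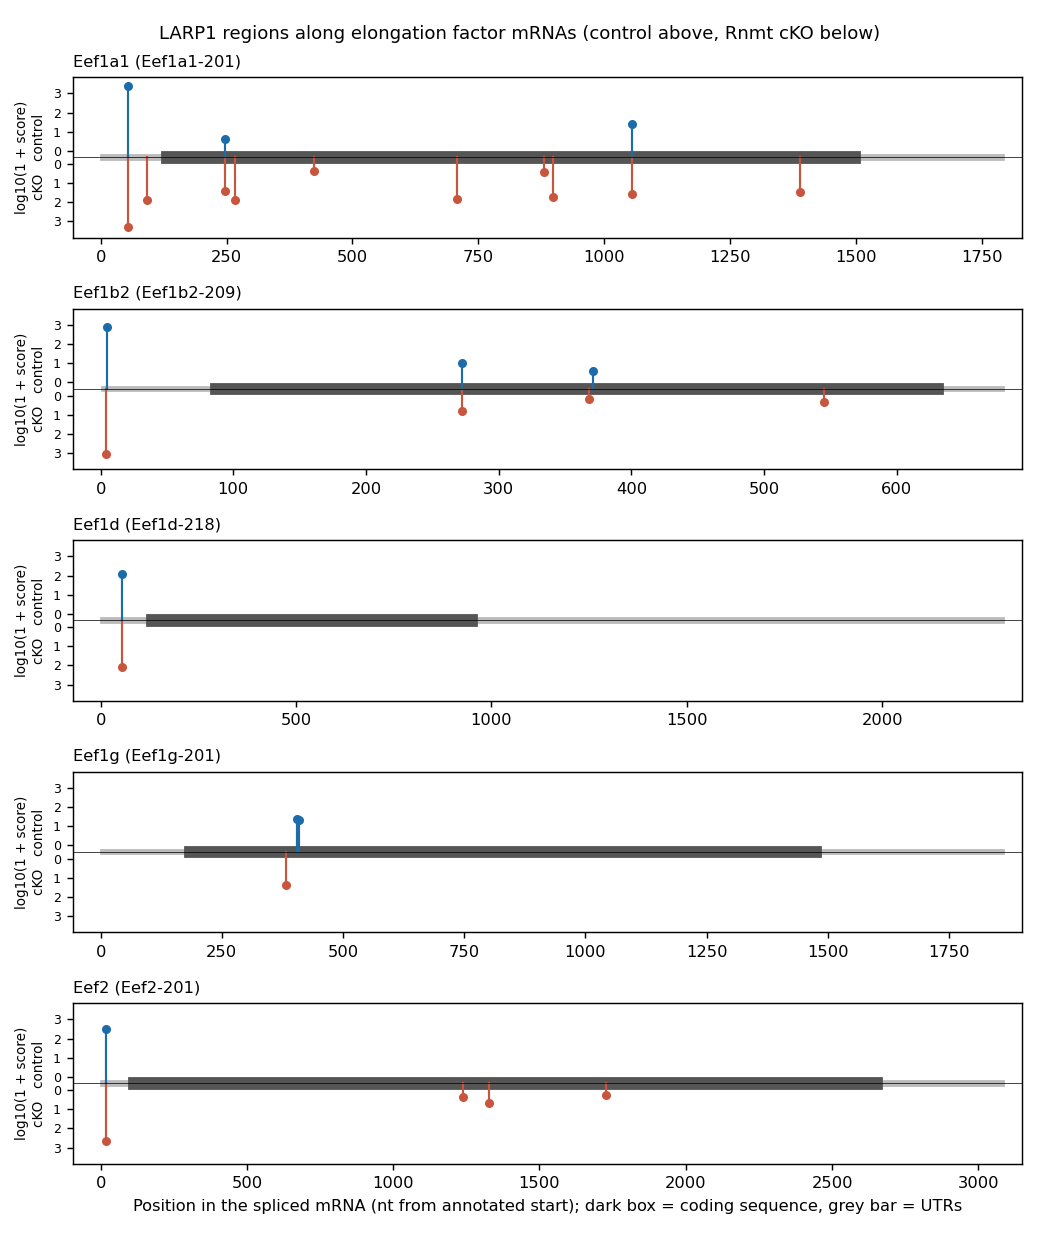
LARP1 regions along the spliced mRNA of the 5 elongation factor genes, with the position from the annotated start (nt) on the x axis and the region score as log10(1 + score) on the y axis, control upwards in blue and Rnmt cKO downwards in red. The highest bar stands in the 5′UTR of Eef1a1, Eef1b2, Eef1d and Eef2 in both lists and in the coding sequence of Eef1g. The Rnmt cKO region 1 nt before exon 4 of Eef1g has no position in the mRNA and is not drawn.

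The score of a region is the sum of the PureCLIP scores of its crosslink sites. Since the model was fitted to each library separately, scores were compared through the rank within a list, given as the percentage of the list at or above it, and not as ratios between lists. The delivery factor came first. Eef1a1 maps to chr9:78478449-78489151 (minus strand), and its 5′UTR region covered chr9:78481665-78481670 in both lists, in exon 1, 66 nt before the start codon. It held 5 crosslink sites and scored 2329.5 in the control list, and it held 6 sites and scored 1836 in the Rnmt cKO list. It ranked 2 in each, the top 0.0627% and 0.0845%. The same 6 bases thus carried the second highest score of either list.

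Among the exchange factor subunits, Eef1b2 (chr1:63176825-63180486, plus strand), a nucleotide exchange subunit, had its 5′UTR region at chr1:63177134-63177135 in the control list, with 2 sites and a score of 741. In the Rnmt cKO list it covered chr1:63177133-63177136, with 4 sites and a score of 1142. The ranks were 62 (top 1.94%) and 39 (top 1.65%). The wider Rnmt cKO region extended the control region by 1 base on each side. Eef1d (chr15:75894205-75909556, minus strand), the other exchange subunit, had its only region at chr15:75909298-75909302 with 3 sites and a score of 118 in the control list. The Rnmt cKO region was 1 base longer, held 4 sites and scored 116. It ranked 265 (top 8.31%) and 211 (top 8.91%), the lowest of the 4 first-exon regions in both lists.

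Eef2, the translocase (chr10:81176631-81182498, plus strand), had its 5′UTR region at chr10:81176647-81176650 in the control list, with 2 sites and a score of 309.7. In the Rnmt cKO list it ended 1 base later, with 3 sites and a score of 456. It ranked 127 (top 3.98%) and 103 (top 4.35%). The order of the 4 mRNAs by this rank was Eef1a1, Eef1b2, Eef2, Eef1d in both lists.

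These percentages depend on what else each list holds, since 826 of 3189 control regions and 1364 of 2367 Rnmt cKO regions were exonic. Ranked among exonic regions only, Eef1b2 stood at the top 5.33% for control and 2.42% for Rnmt cKO cells, Eef2 at 9.81% and 6.16%, and Eef1d at 15.1% and 11.7%. Many regions also had a score that occurred more than once in their list. Among scores that occurred once (1399 control and 2045 Rnmt cKO regions), Eef1b2 stood at 4.43% and 1.91%. In the same ranking Eef2 stood at 9.08% and 5.04%, and Eef1d at 17.8% and 10.3%. All 3 stood higher in the Rnmt cKO list in both of these rankings, whereas in the whole lists Eef2 and Eef1d stood slightly lower there. No direction between the genotypes is therefore read from these ranks.

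**Figure D2:**
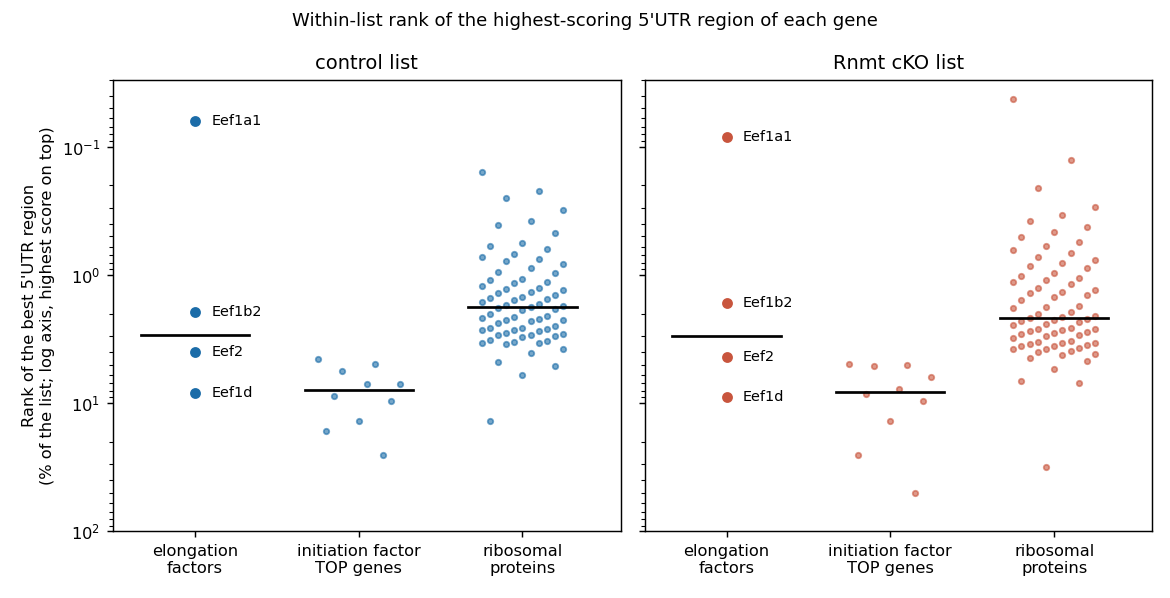
Rank of the highest-scoring 5′UTR region of each gene within its list, as a percentage of the list on a log axis with the highest scores on top, for elongation factors, initiation factor TOP genes and ribosomal proteins, with a line at the median of each group. Eef1a1 stood at 0.0627% and 0.0845%, and the other elongation factors lay between 1.65% and 8.91%.

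The elongation factors were set beside other TOP mRNAs. The median rank of the best 5′UTR region was the top 2.96% for control and 3.00% for Rnmt cKO cells over the 4 elongation factor mRNAs with one. For ribosomal proteins, with such a region in 75 and 77 of 87 genes, it was 1.79% (range 0.157 to 13.8) and 2.15% (0.0422 to 31.7). For the 11 initiation factor TOP genes, among them Eif3 subunits and Pabpc1, it was 7.89% (4.48 to 25.2) and 8.15% (4.99 to 50.3), over 10 genes in each list. Eef1a1 ranked above every ribosomal protein 5′UTR region in control cells, whereas 1 ribosomal protein region ranked above it in Rnmt cKO cells.

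Ranks close to those of a member in both lists were looked for among 358 genes with an exonic region in each list, by the sum of the absolute differences of the 2 percentage ranks of the best exonic region. The nearest were Rps12, Rpl13a and Rpl4 to Eef1a1 (sums of 0.390 to 0.912), Rps4x, Rps13 and Rpl8 to Eef1b2 (0.421 to 0.664), and Rpl24, Rps2 and Hsp90ab1 to Eef2 (0.346 to 0.859). Eef1d was nearest to Bola2, Cox7c and Ptpn18 (0.622 to 1.66), none of them a ribosomal protein gene. Eef1g lay farther from any other gene, with Arpc4, Polr1c and Mrpl23 at 1.92 to 4.52.

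The individual crosslink sites show how the region scores were built up. The 5 sites of Eef1a1 in the control list scored 439, 449, 439, 557 and 445, and the 6 in the Rnmt cKO list scored 294, 317, 317, 317, 317 and 272. In Eef1b2 the sites scored 378 and 363 in the control list and 280, 303, 303 and 257 in the Rnmt cKO list. Within both mRNAs neighbouring bases thus scored alike, and no single base made up most of the region. The sites of Eef2 scored 144 and 166 in the control list and 147, 191 and 117 in the Rnmt cKO list. Those of Eef1d scored 44.9, 36.6 and 36.6, and 17.0, 40.1, 45.5 and 13.7, the Rnmt cKO values at the edges of the region being the lower ones. Ranked by the highest single site instead of the sum, Eef1a1 stood at 25 in the control list (top 0.784%) and at 35 in the Rnmt cKO list (top 1.48%).

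**Figure D3:**
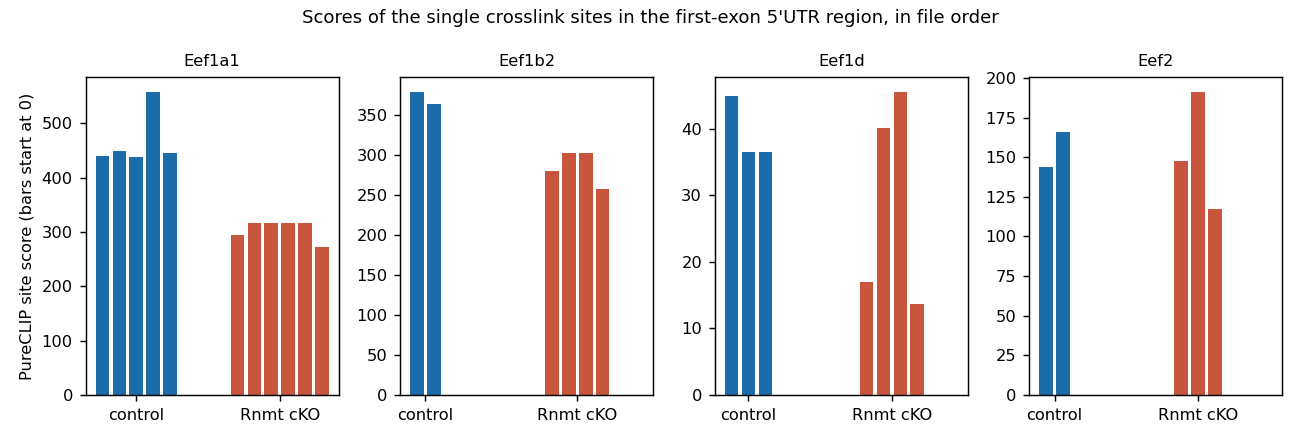
PureCLIP score of each crosslink site in the first-exon 5′UTR region of Eef1a1, Eef1b2, Eef1d and Eef2, 1 bar per site in the order of the deposited list, control in blue and Rnmt cKO in red, with a y axis of its own for each gene. The Rnmt cKO list has more bars in each panel (6 against 5, 4 against 2, 4 against 3 and 3 against 2).

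All 4 first-exon 5′UTR regions held more crosslink sites in the Rnmt cKO list than in the control list. The same was true of 72 of 84 such pairs of shared regions in ribosomal protein mRNAs (85.7%, 76.7 to 91.6) and of 164 of 231 pairs in all genes other than the elongation factors (71.0%, 64.8 to 76.5). Over all exonic regions the share with a single site was also lower in the Rnmt cKO list, 50.1% against 71.7% in the control list. The higher site counts in the elongation factors therefore went with a difference between the lists as a whole, and the part of sequencing depth in it was not tested, because the lists do not give the read depth of either library.

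The distance of the 5′UTR regions from the nearest annotated start differed between the mRNAs. The 5′ base of the region was 16 nt from the annotated transcription start site (TSS) of Eef2 and 4 nt from the nearest TSS of Eef1d. For Eef1b2 it was 4 nt from the nearest start of a basic transcript (one with that tag in GENCODE) in the control list and 3 nt in the Rnmt cKO list. In Eef1a1 it was 54 nt downstream of the nearest annotated start, and the pyrimidine run itself began 51 nt downstream. A TATA motif, TATAAA or TATATA on the strand of the gene, was searched for in the 45 nt before each 5′UTR region, with RefSeq promoter sequences (GRCm38.p6) supplying bases upstream of the transcripts. TATATA began 31 nt before the Eef1a1 region, which is 23 nt downstream of the annotated start, and TATAAA began 31 nt before the Eef2 region. In Eef1b2 TATATA began 35 nt before the control region and 34 nt before the Rnmt cKO region. No match lay in that window in Eef1d. A match was thus present for 3 of 4 regions in the control list and 3 of 5 in the Rnmt cKO list, against 24 of 264 (9.09%, 6.19 to 13.2) and 25 of 316 (7.91%, 5.42 to 11.4) over all genes with known bases. In ribosomal protein mRNAs the shares were 13.9% and 13.1%, and 12.5% of 32851 RefSeq promoters of 300 bases held either motif on the sense strand. TATATA reads the same on both strands, and on either strand 17.1% of promoters held a match. The 300 bases of a promoter are a longer window than the 45 nt before a region, so these shares are not like measures. The motif search was chosen after the sequences had been seen, and a match describes these letters only.

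The number of regions and their place along the mRNAs were compared next. Regions in the 5′UTR were 4 of 10 in the control list (40%, 16.8 to 68.7) and 5 of 21 in the Rnmt cKO list (23.8%, 10.6 to 45.1), beside 36.6% and 25.8% of all exonic regions. Coding sequence held 6 and 15 of the regions, and no region lay in a 3′UTR. Over all genes, regions with known sequence numbered 195 and 403 in coding sequence and 188 and 412 in 3′UTRs, among 826 and 1364 exonic regions. The coding sequence part was thus larger in the elongation factors than over all exonic regions, and the 3′UTR part smaller. This was not particular to them, since coding sequence held 114 of 204 and 256 of 357 regions in ribosomal protein mRNAs. For the 5′UTR, too, ribosomal protein mRNAs gave nearly the same shares as the elongation factors, with 42.2% (35.6 to 49.0) and 25.8% (21.5 to 30.5) of regions. The mean number of regions per gene with at least 1 region was 2.0 and 4.2 in the elongation factors, 2.58 and 4.41 in the ribosomal proteins, and 1.55 and 2.09 in the initiation factor TOP genes. Over the whole series the exonic regions numbered 826 for control and 1364 for Rnmt cKO cells, so the higher number in the elongation factors went with a higher number in all genes. Within 50 nt of an annotated TSS of their own gene lay 4 elongation factor regions (40%) and 6 (28.6%). Of all exonic regions 36.8% and 25.2% lay within 50 nt of a TSS of any gene on the same strand, a wider measure. The counts of the elongation factors include starts of internal transcript fragments. With basic transcripts alone they were 30% and 14.3%, for which no share over all exonic regions is given.

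The additional regions were spread unevenly over the mRNAs. Eef1a1 went from 3 regions in the control list to 10 in the Rnmt cKO list, Eef2 from 1 to 4 and Eef1b2 from 3 to 4, while Eef1d kept 1 and Eef1g 2. Despite these numbers the 5′UTR region kept most of the summed score of its mRNA. It held 98.9% and 83.5% of that of Eef1a1, 98.4% and 99.4% of that of Eef1b2, and 100% and 98.8% of that of Eef2. Eef1a1 in the Rnmt cKO list was the case in which the other regions held the largest part.

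A region was called shared when at least 1 of its bases also lay in a region of the other genotype. In the control list 9 of 10 were shared (90.0%, 59.6 to 98.2), beside 54.4% of all exonic regions and 92.2% (87.6 to 95.1) of those in ribosomal protein mRNAs. In the Rnmt cKO list 10 of 21 were shared (47.6%, 28.3 to 67.6), beside 33.0% and 52.7% (47.5 to 57.8). The elongation factors were therefore close to the ribosomal proteins in both lists. The 1 control region without a partner, in Eef1b2 at chr1:63179262, lay 3 nt from a Rnmt cKO region. One Rnmt cKO region of Eef1a1, at the start of exon 8, had its control partner 1 nt inside the preceding intron, and that control region (score 28.1, rank 693) is not among the 10.

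The 11 regions found only in the Rnmt cKO list were mostly low in it, with a median rank at 79.8% of the list, against 56.8% for the 914 exonic regions of all genes found only there. Above the median score of the list lay 4 of the 11, and all 4 were in Eef1a1. They lay at chr9:78480405-78480418 (score 77.2, rank 292), at chr9:78480683 (70.8, rank 313), at chr9:78479857-78479886 (65.6, rank 332) and at chr9:78479515-78479529 (53.1, rank 383). The second of these was the only other 5′UTR region of the group. It was 1 nt wide, in exon 2 and 29 nt before the start codon, and it fell on a G outside any pyrimidine run. The 3 Rnmt cKO-only regions of Eef2 had scores of 0.895 to 3.41 and ranks from 1607 to 2101, and those of Eef1b2 were at ranks 2051 and 2188. Outside Eef1a1 the additional regions were thus all in the lower part of the list.

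In Eef1a1 the coding sequence regions with a known first base began on A or G, whereas the first-exon 5′UTR region began on a T. A region at the start of exon 3 found only in the Rnmt cKO list (window chr9:78480397-78480516, minus strand, across the junction of exons 2 and 3) and a region in exon 6 found in both lists (window chr9:78479358-78479387, minus strand) are shown for comparison with the 5′UTR sequence above, with capitals for the bases of these regions.
Eef1a1 exon 3: gctgagatGGGAAAGGGCTCCTtcaagtac
Eef1a1 exon 6: atgtgggcttcaatGTaaagaacgtgtcgg
Both began on a G. Over all coding sequence regions of the elongation factors the first base was A or G in 6 of 6 in the control list (100%, 61.0 to 100) and in 12 of 14 with a known base in the Rnmt cKO list (85.7%, 60.1 to 96.0). Among the 6, the Eef1g region at chr19:8969363-8969365 began 1 nt before exon 4 of the coding transcript, so its first base was not coding. Over the coding sequence regions of all genes the first base was A or G in 60% (53.0 to 66.6) and 56.1% (51.2 to 60.8). A pyrimidine run of at least 5 nt overlapped 0 of 6 and 3 of 14 of the coding sequence regions, beside 15.4% and 17.9% over all genes. Among these runs were ctccttc (7 nt), under the Eef1a1 exon 3 region shown, and tccct (5 nt), under the Eef1a1 region at chr9:78479515-78479529. The other was cttct (5 nt) in Eef2.

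A pair of regions in the coding sequence of Eef1a1 was at the same place in both lists. The one in exon 2 at chr9:78480528 scored 3.24 at rank 2162 (67.8%) in the control list and 25.6 at rank 649 (27.4%) in the Rnmt cKO list. The one in exon 6 at chr9:78479373 scored 23.2 at rank 808 (25.3%) and, 1 base wider, 37.6 at rank 493 (20.8%). Both stood higher in the Rnmt cKO list by rank and by percentage. In Eef1b2 the shared coding sequence region at chr1:63178548 ranked 1417 (44.4%) and 1375 (58.1%), so that the rank and the percentage of a list of another length gave no common direction.

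Eef1g (chr19:8967041-8978479, plus strand) had both of its regions at the junction of exons 3 and 4. The region at the end of exon 3 covered chr19:8969223 in the control list, with 1 site, a score of 22.3 and rank 824 (25.8%). In the Rnmt cKO list it covered chr19:8969200-8969223, with 3 sites, a score of 22.6 and rank 705 (29.8%). The region at the start of exon 4 covered chr19:8969363-8969365 in the control list (3 sites, score 20.5, rank 910). In the Rnmt cKO list it was the single base at chr19:8969363 (score 16.8, rank 844), which lies 1 nt before exon 4 of the coding transcript and in an exon of a non-coding transcript. The pair of regions thus stood at like ranks in both lists, far below the 5′UTR regions of the other members. The annotated 5′UTR of Eef1g was 173 nt long, began with a pyrimidine run of 5 nt, held 8 runs of at least 5 nt and had a longest run of 22 nt from position 87. No region was called in it in either list, which does not show that LARP1 was absent there, since the lists hold only what passed the caller.

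Outside the first-exon 5′UTR regions, the regions of the elongation factors lay mostly near exon junctions. Within 20 nt of a junction lay 5 of 6 in the control list (83.3%, 43.6 to 97.0) and 13 of 17 in the Rnmt cKO list (76.5%, 52.7 to 90.4). In Eef1a1 this held for 1 of 2 and 8 of 9 regions. For Eef2 it held for 1 of 3 in the Rnmt cKO list. Of the mRNA bases of Eef1a1, 16.4% were that close to a junction. A region was measured from its nearest base, so a wide region comes within 20 nt more easily than a single base. Shares of bases, here and below, are therefore not the shares to be met by regions. Counting coding sequence regions only, 5 of 6 and 11 of 15 (73.3%, 48.0 to 89.1) lay within 20 nt, beside 37.7% (29.4 to 46.9) and 43.0% (37.1 to 49.1) in ribosomal protein mRNAs and 36.3% (26.6 to 47.2) and 30.7% (23.8 to 38.5) in other mRNAs. The coding bases of the genes concerned that were within 20 nt of a junction made up, on average, 25.6% and 21.8% in the elongation factors, 32.8% and 33.2% in ribosomal proteins and 25.6% and 26.1% in others. Of the 15 regions in the Rnmt cKO list 8 were in Eef1a1, so the share rests largely on 1 mRNA, and the distance of 20 nt was chosen after the positions had been seen.

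**Figure D4:**
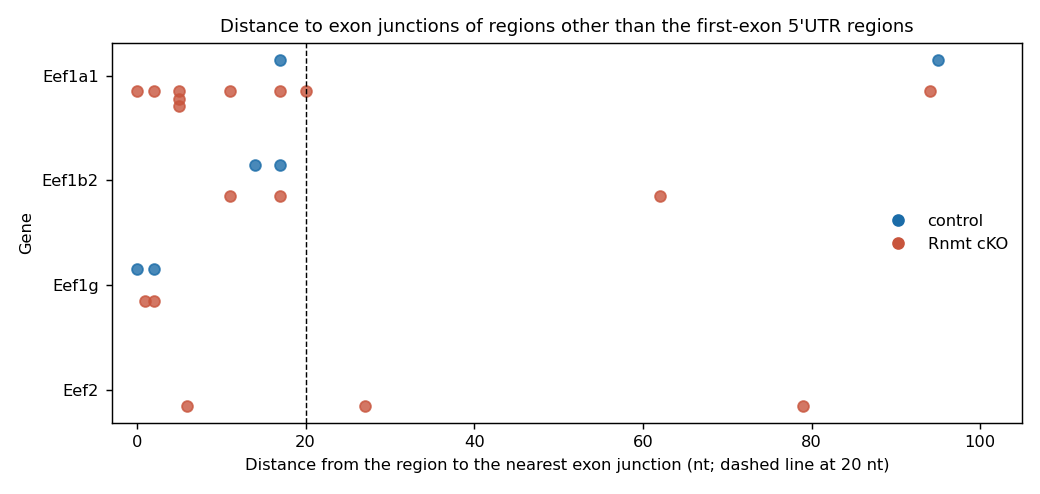
Distance (nt) from each region other than the first-exon 5′UTR regions to the nearest exon junction of its mRNA, by gene, control in blue and Rnmt cKO in red, with a dashed line at 20 nt. Of the points, 5 of 6 control and 13 of 17 Rnmt cKO regions lie at or left of the line, and Eef1d has none.

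Of 28 other genes of elongation, 0 had an exonic region in either list, where 2.59% and 3.17% of all protein-coding genes had one, so that a count of 0 is near the share over all genes. They included Eef1a2 (the eEF1A of muscle and neurons), Eif5a (which relieves stalled ribosomes), Eef2k (the eEF2 kinase), the enzymes that make diphthamide on eEF2, the methyltransferases of eEF1A, and the mitochondrial factors Tufm, Tsfm and Gfm1. One region of the Rnmt cKO list lay in an intron of Gtpbp1 (chr15:79714099, score 0.878, rank 2107). The lack of a called region does not show that LARP1 was absent. The list of 28 genes was also chosen with earlier results of these data known.

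Together the 5 mRNAs contributed 1.96% of all score in the control cells and 2.49% in the Rnmt cKO cells, while they held 0.314% and 0.887% of the regions. For exonic regions alone the shares of the summed score were 3.78% and 3.25%, and the shares of regions were 1.21% and 1.54%. Their crosslink sites numbered 20 and 44, and 5 and 10 of the regions had a single site.

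The lists offer no check of the genotype, because Rnmt had no region in either. Larp1 had 0 exonic regions for control and 1 for Rnmt cKO cells. Of T cell markers, Cd4 had 1 region in each list and Cd3d had 1 and 2, whereas Cd3e, Cd3g, Trac, Lck, Cd8a, Cd8b1, Ms4a1 and Lyz2 had none, and a list of regions does not measure expression. A further 10 control and 14 Rnmt cKO regions on chromosome Y, which these female mice lack, were left out.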

How the data were processed

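Per the study's methods, the authors moved a 10 nt barcode to the read name (UMI-tools), trimmed adapters (cutadapt), aligned reads to mm10 with STAR 2.5.2b, removed PCR duplicates by barcode and discarded alignments with mapping quality under 20 (SAMtools). They called sites in the LARP1 IP with PureCLIP, set against the input library of that genotype, with a model learned on chromosomes 1 to 5 and sites joined within 30 nt. Each deposited list gives the score of every crosslink site and a region score, which equalled the sum of its site scores in all 3199 control and 2381 Rnmt cKO regions (tolerance 0.1%). A score is relative to the model of its own library and has no unit shared between lists. The study's later selection of regions by read ratios was not applied, and read depth is unknown from these files. The lists were assigned to the LARP1 IP libraries from the sample labels and the methods. The preliminary libraries and the IgG and input reads were not used here.

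Regions without chromosome Y were set against GENCODE M21 exons on the same strand (55450 genes), classed as 5′UTR before coding sequence before 3′UTR before non-coding exon, and ranked by region score within each list. Distances were measured from the 5′ base of a region to the TSS and from the nearest base to exon junctions. Intervals are 95% Wilson intervals. Scripts used Python 3.11.15, numpy 2.4.6, matplotlib 3.10.9 and blastn 2.17.0 and were tested on simulated data. Members and gene lists were chosen with earlier results of these data known. The genes named are the 5 members, the listed elongation genes with a region, and the 3 genes nearest in rank to each member. Genes named beyond this rule (examples of listed genes without a region, Rnmt, Larp1, cell markers and 2 pseudogenes) were chosen after their values were seen or as checks. The distance of 20 nt to a junction, the pyrimidine run of 5 nt and the TATA motifs were chosen after the data were seen. Promoter sequences of 3 members were found in the RefSeq table, and they equalled the transcript sequences at 100 of 100 bases compared. Alternatives changed the score and site minimum, the annotation, the TSS distance, the overlap and the ranking.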

Additional observations from a re-analysis of the deposited data

How the results depend on the processing

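No paired analysis was possible because there was 1 LARP1 IP library and 1 list per genotype, and for the same reason no replicate could be left out. Of 76 alternative values, 45 stayed within the counting interval, or within 1.5-fold for a count, of the value reported, and 31 did not. With at least 2 crosslink sites per region the elongation factors kept 5 control and 11 Rnmt cKO regions, and the 5′UTR share of the control regions was 80.0%. With scores above the median of the list 13 Rnmt cKO regions remained, and without Eef1a1 11 did. Counting regions within 10 nt as shared made the control share 100%. These changes follow from the smaller sets or the wider gap. The rest (25) were ranks and score shares, which moved because the denominator or the ranking value changed. Ranked by the highest site score, Eef1d stood at the top 13.8% and 13.1% and Eef1g at 23.7% and 40%. Counting error over few regions and the unknown read depth limit every comparison between the genotypes.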

Other observations

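Processed pseudogenes add copies of these mRNAs to the genome. Among 14420 annotated pseudogene transcripts, blastn (e-value 1e-20, at least 100 nt aligned) matched 23 pseudogenes to Eef1a1, 1 to Eef1b2, 2 to Eef1d, 11 to Eef1g and 5 to Eef2. Regions were called at 2 of them, both copies of Eef1a1. AC133509.1 on chromosome 19 (97.3% identity over 1387 nt) had a region 67 nt upstream of its annotated start in both lists, with a score of 19.3 at rank 928 (29.1%) in the control list and 8.44 at rank 1166 (49.3%) in the Rnmt cKO list. Its annotated start aligned with the start codon of Eef1a1, before which the 5′UTR region of Eef1a1 itself began 66 nt. Gm13456 on chromosome 2 (98.6% identity over 1317 nt) had a region 66 nt upstream of its annotated start, with 2 sites, a score of 1.45 and rank 2368 (74.3%) in the control list and 6 sites, a score of 51.7 and rank 389 (16.4%) in the Rnmt cKO list. Whether that start corresponds to the start codon cannot be told, since the alignment began at base 49 of the copy and base 194 of Eef1a1. Extended from there without gaps, the region would correspond to base 80 of the Eef1a1 mRNA, whereas the Eef1a1 5′UTR region began at base 55. The extension crosses unaligned bases, so no difference in position is read from it. A second control region lay 594 nt after the annotated start of Gm13456 (score 48.9, rank 452) and had no partner in the Rnmt cKO list. Whether reads from the gene contributed to the regions at the copies was not tested, since the lists hold no reads. The pseudogene regions are not counted among those of Eef1a1.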
